A study of Homo sapiens with 9 samples.

Results

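Amino acid synthesis and import genes were followed in 10 members, chosen by symbol: ASNS, PSAT1, PHGDH, PSPH, SHMT2, MTHFD2, CTH, CBS, SLC7A11 and SLC3A2. Every probe set that the platform annotation pairs with 1 of these symbols was taken, which gave 16 of the 22215 probe sets tested, for 10 of the 11963 genes named by a single symbol. The study measured total RNA of the human neuroblastoma line IMR32 on 9 single-colour oligonucleotide arrays. Choline acetyltransferase, which makes acetylcholine, exists in humans as a 69-kDa and an 82-kDa protein, and each was introduced into a stable line of its own. The groups were the line with the 82-kDa protein (82CHAT, 3 arrays), the line with the 69-kDa protein (69CHAT, 3 arrays) and arrays labelled wild type (WT, 3 arrays). The submitters describe the samples of a group as biological replicates. With 1 line per protein, the protein and the line cannot be told apart.

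The members belong to linked routes that supply amino acids. PHGDH, PSAT1 and PSPH catalyse, in that order, the steps that turn a glycolytic intermediate into serine, SHMT2 splits mitochondrial serine into glycine and a folate-bound carbon unit, and MTHFD2 oxidises that unit. CBS and CTH pass the sulphur of homocysteine to cysteine, SLC7A11 and SLC3A2 form the antiporter that imports cystine in exchange for glutamate, and ASNS makes asparagine. Many of these genes are known targets of ATF4, a transcription factor translated more when amino acids run short or the endoplasmic reticulum is stressed, and in neuroblastoma the serine route is known to be strongly used in MYCN-amplified cells.

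The promoter of ASNS carries the best-studied example of the sequence through which ATF4 and its partners act, so the bases around the match are shown here with the match in capitals. The motif searched was TGATGNAA on either strand, in windows of 250 bases before to 50 bases after each start in RefSeq's promoter table (GRCh38.p14). Of the members, 7 were in that table with 12 windows in all, while PSPH, SHMT2 and SLC7A11 were not matched. The ASNS stretch is chr7:97872429-97872516, minus strand, positions -108 to -21 from the start, in the promoter. The SLC3A2 stretch is chr11:62881726-62881748, plus strand, positions 28 to 50 after the start of 1 of its 3 windows, in the transcribed part, and its match lies on the opposite strand.
ASNS: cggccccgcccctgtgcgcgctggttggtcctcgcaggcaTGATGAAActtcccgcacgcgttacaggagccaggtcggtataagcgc
SLC3A2: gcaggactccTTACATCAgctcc
The motif stood in 2 of the 12 windows of members, against 3.62% of all 35116 windows. A match is a description of letters and not of binding. SLC3A2 is shown for a second motif as well, TGACNNNGC, the core letters of the antioxidant response element bound by NFE2L2, since NFE2L2 targets are described beside the members further on. Its stretch is chr11:62881599-62881698, plus strand, positions -100 to -1 before the same start, and does not overlap the match above.
SLC3A2 upstream: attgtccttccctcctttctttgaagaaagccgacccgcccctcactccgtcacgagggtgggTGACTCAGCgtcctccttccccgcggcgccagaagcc
That second motif stood in 3 of the 12 windows of members, 1 each of MTHFD2, SLC3A2 and CBS, against 13.3% of all windows.

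Values are intensities on a linear scale after RMA, with medians of 133.7 to 142.7 on the 9 arrays. CHAT, the gene introduced, read 1066, 423 and 1067 on 82CHAT arrays, 256, 175 and 177 on 69CHAT arrays and 148, 125 and 114 on WT arrays. It was 6.11-fold higher in 82CHAT than in WT (limma, adjusted p = 0.00057), while the 1.56-fold difference of 69CHAT from WT did not pass (0.23). Arrays labelled WT went against their label: MYCN, the oncogene amplified in IMR32, read 62.5 to 120.5 there, and 4181 to 6118 on the 6 arrays of the lines. Of 13 neuroblastoma markers 12 were measured, and their summed level was 13604 to 20468 in 82CHAT, 10953 to 18410 in 69CHAT and 1651 to 1888 in WT. All 6 epithelial markers were measured, with a sum of 260.04 to 296 in 82CHAT, 253 to 294 in 69CHAT and 5408 to 6176 in WT. All 6 fibroblast and mesenchymal markers were measured, with a sum of 4543 to 6554 in 82CHAT, 4566 to 7580 in 69CHAT and 8429 to 9629 in WT. Of the 12 neuroblastoma markers 3 (HAND2, TH and SCG2) read below 55.9 on all 3 arrays labelled WT, and 1 did so on all arrays of each line. The level of 55.9 is the smallest of the lower quartiles of the 9 arrays and serves below as a mark of dim signal. Every difference from WT below is therefore a difference from these arrays, in which transgene and cell identity cannot be told apart. In bulk RNA, fewer cells of a type and less RNA per cell cannot be told apart either. The ratio of 3' to 5' ACTB signal, a measure of RNA integrity, was 0.709 on 82CHAT replicate 1 and 0.703 on 69CHAT replicate 1, and 0.831 to 1.08 on the other arrays. The same ratio of GAPDH did not set them apart, at 0.98 and 1.02 against 0.950 to 1.06 on the other arrays. The bioD control probe set read 193 to 259 on replicate 1 of the 3 groups and 460 to 739 on the other arrays.

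Across the members, 1 array stood apart. On 69CHAT replicate 1, 9 of the 10 genes read higher than on any of the other 8 arrays by their brightest probe set, and 8 of them were also at least 2-fold above the median of those 8. Of all 22215 probe sets, 0.428% met both conditions on that array. By probe sets the count was 13 of 16. The median distance of the 10 genes from the median of the other 8 arrays was 1.25 on the log2 scale, against 0.03 for all probe sets. The array was singled out with its values known, so these are descriptions with no test. The summed neuroblastoma markers were lowest there among the 6 arrays of the lines, at 10953, and their part in the members' values was not tested.

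**Figure D1:**
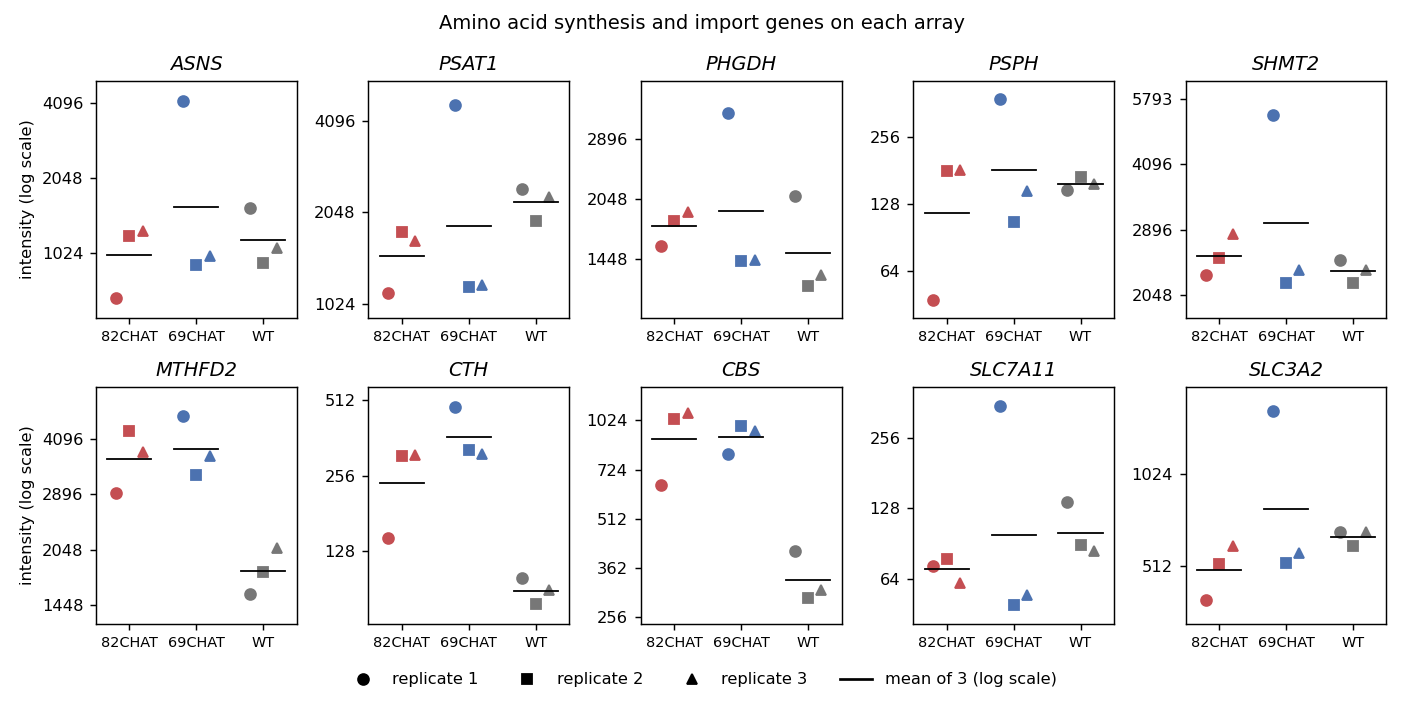
Intensity (log scale) of the brightest probe set of each of the 10 genes on the 9 arrays, by group, with a marker shape for each replicate and a bar at the mean of 3 arrays on the log scale. The circle of 69CHAT (replicate 1) is the highest point of every panel except CBS, and in MTHFD2, CTH and CBS all points of both lines lie above WT.

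ASNS, asparagine synthetase, was measured by 1 probe set. It read 4165 on 69CHAT replicate 1, against 917 and 999 on 69CHAT replicates 2 and 3. On 82CHAT arrays it read 679, 1203 and 1255, and on WT arrays 1549, 931 and 1069. The one high array was 4.03-fold above the median of the other 8 and 2.69-fold above the highest of them, and without it the ranges of the 3 groups overlapped.

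The serine route showed the same array as highest at each of its steps. PHGDH, the dehydrogenase of the first step, read 3384 on 69CHAT replicate 1 and 1437 and 1439 on the group's other arrays. It read 1565, 1803 and 1908 on 82CHAT arrays and 2088, 1240 and 1318 on WT arrays. A further probe set that the annotation pairs with PHGDH and other genes was left out. PSAT1, the aminotransferase of the next step, read 4607 on 69CHAT replicate 1, and 1163 and 1186 on replicates 2 and 3. Its 82CHAT arrays read 1109, 1758 and 1644 and its WT arrays 2444, 1911 and 2302, so in replicates 2 and 3 the lines lay below WT. PSPH is the phosphatase of the last step. Its brighter probe set read 379, 106 and 146 in 69CHAT, 47.4, 180.4 and 181 in 82CHAT, and 147, 168 and 158 in WT. PSPH was thus highest on replicate 1 of 69CHAT and lowest on replicate 1 of 82CHAT, where it read under 55.9, and its dimmer probe set gave the same extremes (370.5 and 54.5).

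SHMT2 and MTHFD2 differed in how far they shared this pattern. The brightest of the 3 SHMT2 probe sets read 5304 on 69CHAT replicate 1, and 2181 and 2342 on replicates 2 and 3. On 82CHAT arrays it read 2281, 2485 and 2827, and on WT arrays 2467, 2183 and 2342. The 8 arrays other than 69CHAT replicate 1 thus spanned a narrow range, with that array 2.27-fold above their median. The other SHMT2 probe sets were 2.92-fold and 1.98-fold above that median, the last just short of the 2-fold limit. MTHFD2 read 4706, 3267 and 3668 in 69CHAT, 2911, 4301 and 3760 in 82CHAT, and 1550, 1789 and 2068 in WT. The array was 1.53-fold above the median of the other 8 and 1.09-fold above the highest of them, while both lines lay above WT on every array.

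CBS and CTH, the enzymes of transsulphuration, separated from each other on 69CHAT replicate 1. CTH by its brighter probe set read 481, 325 and 312 in 69CHAT, 145, 307 and 309 in 82CHAT, and 99.6, 78.8 and 89.1 in WT. Replicate 1 of 69CHAT was its highest array, 2.28-fold above the median of the other 8, and the dimmer probe set gave 2.25-fold. By the brighter probe set that median, 211, lay above WT and below every array of the lines except 82CHAT replicate 1. Replicate 1 of 69CHAT was 0.60 above the mean of replicates 2 and 3 on the log2 scale, and 1.11 by the dimmer probe set. CBS read 809, 981 and 947 in 69CHAT, 648, 1037 and 1077 in 82CHAT, and 409, 294 and 309.9 in WT. Replicate 1 was the lowest 69CHAT array for CBS, at 1.03-fold the median of the other 8, the only one of the 10 genes for which it was not the highest.

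The subunits of the cystine antiporter were both highest there. SLC7A11 is the transport subunit. Its brightest probe set read 349 on 69CHAT replicate 1, 49.8 and 55.2 on replicates 2 and 3, 73.0, 78.4 and 62.0 in 82CHAT, and 136, 89.9 and 84.5 in WT. The array was 4.61-fold above the median of the other 8, and the other probe sets gave 7.53-fold and 2.41-fold. The probe set with the 7.53-fold value read below 55.9 on 6 arrays, so its fold is approximate. SLC3A2, the heavy chain that SLC7A11 shares with other transporters, read 1641, 521 and 561 in 69CHAT, 396, 519.6 and 593 in 82CHAT, and 659, 593 and 662 in WT. It was 2.84-fold above the median of the other 8 arrays and 2.48-fold above the highest of them.

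**Figure D2:**
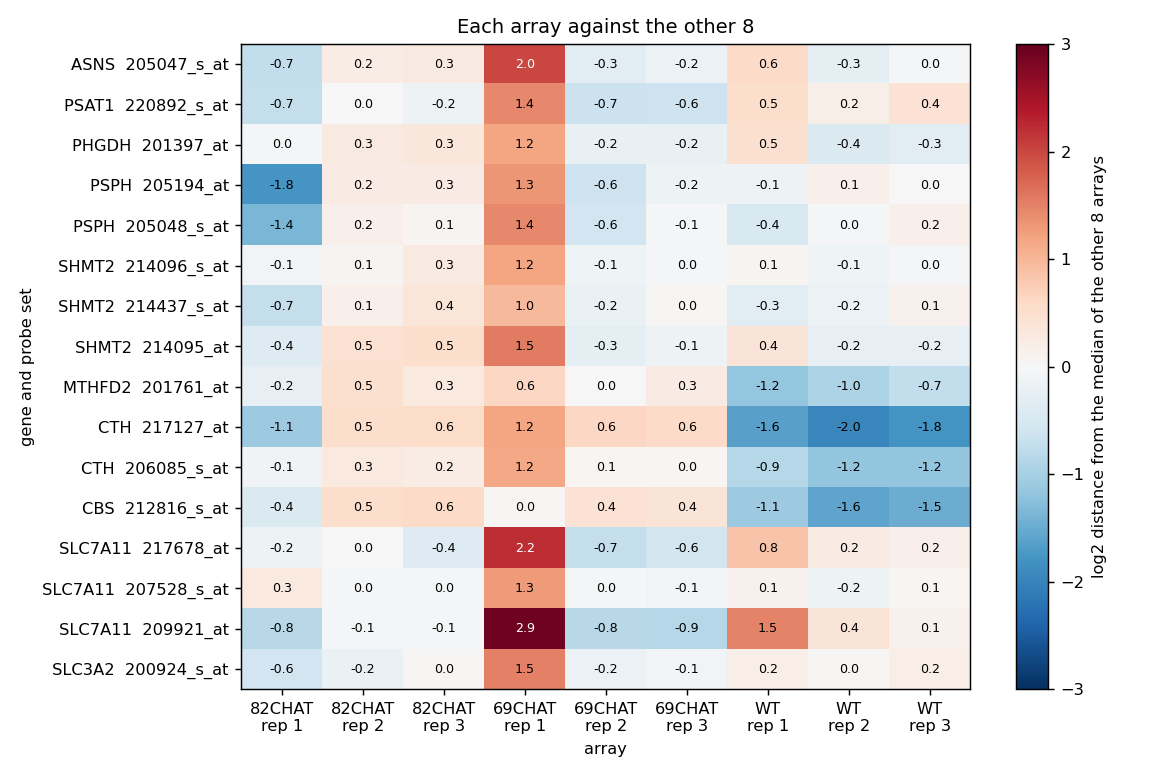
Log2 distance of each array from the median of the other 8, for the 16 probe sets (rows) and 9 arrays (columns); red is above and blue below. The column of 69CHAT replicate 1 is at least 1 on this scale for 13 probe sets, the WT columns are blue for MTHFD2, CTH and CBS, and 82CHAT replicate 1 is lowest for PSPH.

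The same count on the other arrays was lower. On each of the 8 other arrays 0 of the 10 genes were at least 2-fold above the median of the rest and above all of them. Of all probe sets this held for 0.441%, 0.0945% and 0.468% on 82CHAT arrays, 0.113% and 0.432% on 69CHAT replicates 2 and 3, and 1.74%, 2.33% and 2.28% on WT arrays. By the mirrored rule, at least 2-fold below the median of the other 8 arrays and below all 8, 1 gene was low on 82CHAT replicate 1 (PSPH, with 1.05% of all probe sets), 1 on WT replicate 1 (MTHFD2, with 1.51%) and 2 on WT replicate 2 (CTH and CBS, with 1.35%). Within 69CHAT, replicate 1 lay above both other replicates for 9 of 10 genes, with a median log2 difference of 1.42 from their mean (50.8% of all probe sets lay above both), while replicates 2 and 3 differed by at most 0.46. Within 82CHAT the order was the opposite: replicate 1 lay below both others for 9 of 10 genes, with a median of -0.55 (37.7% of all probe sets lay below both). Within WT, replicate 1 lay above both others for 7 genes and below both for 2, with a median of 0.23 (45.0% and 32.4% of all probe sets). Over all probe sets the median of this difference was 0.04 in 82CHAT, 0.04 in 69CHAT and 0.03 in WT. The ACTB ratio was lowest on replicate 1 of both lines, while the GAPDH ratio was not. The bioD control was lowest on replicate 1 of all 3 groups. The part of these measures in the members' values was not tested.

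Compared with WT by limma, each line had 4 of the 16 probe sets higher and 0 lower, and these were the probe sets of MTHFD2, CTH and CBS. The background in 82CHAT was 26.8% of the whole table called, 11.0% upward and 15.7% downward, and in 69CHAT it was 26.2%, 10.9% upward and 15.3% downward. Both comparisons use the same 3 WT arrays. MTHFD2 was 2.02-fold higher in 82CHAT than in WT (log2 difference 1.01, SE 0.19, adjusted p = 0.0036) and 2.14-fold higher in 69CHAT than in WT (1.10, SE 0.19, adjusted p = 0.0023). CBS was 2.69-fold higher in 82CHAT than in WT (log2 difference 1.43, SE 0.21, adjusted p = 0.0010) and 2.72-fold higher in 69CHAT (1.44, SE 0.21, adjusted p = 0.00096). In neither gene did the arrays of a line overlap WT. The markers of cell identity given above separate the lines from WT as well, and their part in these differences was not tested.

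CTH was 2.70-fold higher in 82CHAT than in WT by the brighter probe set (log2 difference 1.43, SE 0.30, adjusted p = 0.0069) and 4.11-fold higher in 69CHAT (2.04, SE 0.30, adjusted p = 0.0010). Its dimmer probe set gave 2.26-fold in 82CHAT (adjusted p = 0.014) and 2.73-fold in 69CHAT (0.0048). Without 69CHAT replicate 1 the log2 differences of 69CHAT from WT were 0.95 for MTHFD2, 1.84 and 1.08 for CTH and 1.53 for CBS, all still past the threshold (adjusted p = 0.0059, 0.0031, 0.00085 and 0.0020). The call of the dimmer CTH probe set in 82CHAT was lost without 82CHAT replicate 2 and without WT replicate 2 (adjusted p = 0.051 in each). With the replicate number as a block the same 4 probe sets were called in each line, where 38.2% of the table was called in 82CHAT and 36.5% in 69CHAT.

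For the other 7 genes the fit over all 9 arrays made no call against WT in either line, with intervals that were wide. The 95% interval of the ASNS difference reached from -1.44 to 1.05 in 82CHAT and from -0.81 to 1.68 in 69CHAT. That of SHMT2, the narrowest of the 7, reached from -0.56 to 0.79 in 82CHAT and from -0.31 to 1.04 in 69CHAT. The SD of 69CHAT was 1.23 for ASNS and 1.58 for SLC7A11 on the log2 scale, against 0.50 and 0.17 in 82CHAT and 0.38 in WT for each.

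Leaving out 69CHAT replicate 1 changed what the fit called in 69CHAT. That array was singled out with its values known, so the calls in this paragraph are descriptive. The fit then called 7 of the 16 probe sets against WT, 4 higher and 3 lower. Of all probe sets 26.5% were called, 11.7% higher and 14.7% lower. The 3 lower ones were those of PSAT1 and SLC7A11. PSAT1 was 0.91 lower than WT on the log2 scale (1163 and 1186 in 69CHAT, against 1911 to 2444 in WT; adjusted p = 0.011). SLC7A11 fell by 0.95 by its brightest probe set (adjusted p = 0.011) and by 1.44 by its dimmest (0.031), while the remaining probe set of the gene differed by -0.04 (0.87). On both of the probe sets called, the 69CHAT arrays read under 55.9 (49.8 and 55.2 on the brightest, 28.5 and 28.0 on the dimmest), so the size of these differences is approximate. In 82CHAT, PSAT1 was then called too, at -0.58 (adjusted p = 0.043; 5 of 16 probe sets called, where 29.7% of the table was), and no array of the line overlapped WT.

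**Figure D3:**
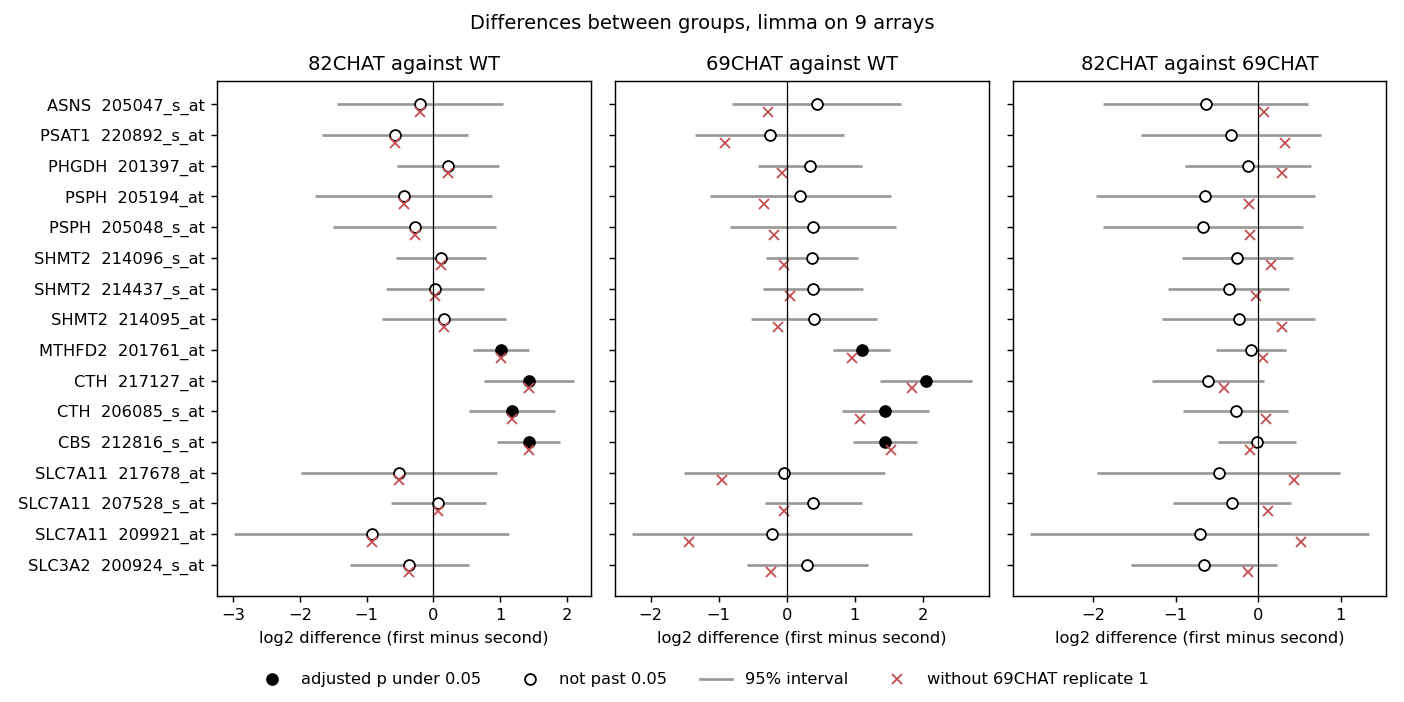
Log2 differences of the 16 probe sets (rows) in the 3 comparisons, with the first-named group minus the second, 95% intervals as bars, filled points for adjusted p under 0.05 and crosses for the same difference without 69CHAT replicate 1. Filled points are those of MTHFD2, CTH and CBS against WT, and the crosses of PSAT1 and 2 SLC7A11 probe sets lie well left of their points in 69CHAT against WT.

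No difference between the lines passed the test over all 9 arrays: limma called 0 of 16 probe sets between 82CHAT and 69CHAT, 0 had an unadjusted p under 0.05, and 0.0% of the whole table was called, where 733 probe sets (3.3%) had an unadjusted p under 0.05. Without 69CHAT replicate 1 the count was again 0 of 16, where 0.036% of the table was called. The intervals allow sizeable differences, from -1.88 to 0.61 for ASNS and from -0.51 to 0.34 for MTHFD2. For CTH, 69CHAT read above 82CHAT on every array by its brighter probe set, and the difference was -0.61 (82CHAT minus 69CHAT, interval -1.28 to 0.07, adjusted p = 0.9999). On the replicate 1 arrays alone, 82CHAT minus 69CHAT was -2.62 for ASNS, -2.998 for PSPH and -2.05 for PSAT1.

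In replicates 2 and 3 alone the differences turned the other way for most members. This split leaves out 69CHAT replicate 1, an array singled out with its values known, and keeps fewer arrays per group. Its calls, here and against WT below, are therefore descriptive. The median of the 10 genes was 0.30 (82CHAT minus 69CHAT), against -0.40 with all replicates. Of the 16 probe sets 2 were then higher in 82CHAT and 0 lower, where 2.04% of all probe sets were called. These were the dimmest SHMT2 probe set (458 and 482 in 82CHAT, 317 and 341 in 69CHAT; difference 0.52, adjusted p = 0.020) and the dimmest SLC7A11 probe set (48.2 and 48.2 in 82CHAT, 28.5 and 28.0 in 69CHAT; 0.77, adjusted p = 0.015). The SLC7A11 probe set read under 55.9 on all 4 of these arrays. PSAT1 (0.53, adjusted p = 0.058) and PHGDH (0.37, adjusted p = 0.056) just missed the threshold.

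Against WT, replicates 2 and 3 alone gave 7 probe sets higher in 82CHAT and 0 lower, where 39.6% of all probe sets were called. The added ones were PHGDH (0.54 on the log2 scale, adjusted p = 0.00096), the dimmest SHMT2 probe set (0.52, adjusted p = 0.0012) and ASNS (0.30, adjusted p = 0.037). In the limma fit over all 9 arrays their adjusted p was 0.66, 0.80 and 0.81. In 69CHAT they gave 4 higher and 3 lower, where 39.0% were called (18.5% higher and 20.5% lower), with PSAT1 at -0.84 (adjusted p = 0.00074) and SLC7A11 at -0.73 and -1.03 (adjusted p = 0.0032 and 0.00019). The SLC7A11 values of 69CHAT are the same readings under 55.9, so these sizes are approximate too.

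Genes around the members were taken from 6 lists by their brightest probe sets. Of 18 measured regulators of the amino acid response, 6 were high on 69CHAT replicate 1. They were at least 2-fold above the median of the other 8 arrays and above all 8, as 0.428% of all probe sets were. By the mirrored rule 0 were below, where 0.824% of all probe sets were. ATF5, a factor related to ATF4, was 7.60-fold above that median (2464, against 267 to 385 on the other arrays). DDIT4, an inhibitor of mTORC1 signalling, was 6.28-fold above it (4972, against 669.8 to 874), and DDIT3, the stress factor CHOP, 4.91-fold (899.8, against 151 to 213). TRIB3, a pseudokinase induced by ATF4, was 3.83-fold above it and EIF4EBP1, a brake on translation, 2.06-fold. The other of the 6 was CEBPB, a partner of ATF4. ATF4 itself was 1.57-fold above it (4629, against 2271 to 4067), and ATF3 was 3.64-fold above it but within the range of WT (666, against 578 to 760.1 in WT). Its level in 82CHAT fell by 1.94 on the log2 scale against WT (adjusted p = 0.034), and in 69CHAT it differed by -1.55 (0.081). Without 69CHAT replicate 1 it passed in both lines (adjusted p = 8.6e-05 in 82CHAT and 7.0e-05 in 69CHAT), with 115 and 140 on the other 69CHAT arrays.

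Of 26 other transporters of amino acids measured, 1 was above the other 8 arrays by the same rule there: SLC7A5, a carrier of large neutral amino acids that also pairs with SLC3A2, at 3.34-fold their median (2125, against 354 to 860.5). SLC1A4, a carrier of alanine, serine and cysteine, was 1.90-fold above it and SLC43A1 1.80-fold. The median over the 26 was 0.14, near the 0.03 of all probe sets, of which 0.428% were above by that rule. Against WT, 3 transporters were higher and 4 lower in 82CHAT, and 5 were higher and 4 lower in 69CHAT. The share of all probe sets called in either direction was 26.8% in 82CHAT and 26.2% in 69CHAT. With the replicate number as a block the higher calls were 5 in 82CHAT and 8 in 69CHAT. The block fit called 38.2% of all probe sets in 82CHAT and 36.5% in 69CHAT, in either direction. SLC38A1, a glutamine carrier, was 2.53-fold higher in 82CHAT (adjusted p = 0.00021) and 2.56-fold higher in 69CHAT (0.00020), and SLC6A15, a carrier of branched-chain amino acids and proline, was 3.18-fold higher in 82CHAT (0.0023) and 5.25-fold higher in 69CHAT (0.00030). SLC38A6 read 2.18-fold lower in 82CHAT (adjusted p = 7.2e-05) and 1.98-fold lower in 69CHAT (0.00015), with every array of the lines under 55.9. SLC16A10, a carrier of aromatic amino acids, fell by 0.66 on the log2 scale in 82CHAT (adjusted p = 0.0082) and by 1.02 in 69CHAT (0.00078).

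Of 16 other synthesis genes, 0 were above or below the other arrays by the same rule on 69CHAT replicate 1. PYCR1, the last enzyme of proline synthesis, was 1.77-fold above the median of the other 8 there. OAT, ornithine aminotransferase, lay 2.09-fold below it and GLUL, glutamine synthetase, 1.70-fold below. OAT read 484 there, but lower still on 82CHAT replicate 1, at 385. It read 883 to 1010 on the other arrays of the lines and 2031 to 2864 on WT arrays, which raise that median. Against WT, 3 of the 16 were higher and 4 lower in 82CHAT, and 4 were higher and 4 lower in 69CHAT. Of all probe sets 26.8% were called in 82CHAT and 26.2% in 69CHAT, in either direction. ASS1, argininosuccinate synthase of the arginine route, was 8.68-fold higher in 82CHAT (adjusted p = 3.1e-05) and 13.5-fold higher in 69CHAT (1.0e-05). BCAT1, which transfers amino groups of branched-chain amino acids, was 4.96-fold higher in 82CHAT (8.1e-05) and 4.77-fold higher in 69CHAT (9.4e-05). PYCR1 was 2.78-fold higher in 82CHAT (0.0015) and 3.10-fold higher in 69CHAT (0.00086). ALDH4A1, a proline-degrading enzyme, fell by 0.75 on the log2 scale in 82CHAT (0.00091) and by 0.52 in 69CHAT (0.0069).

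Of 18 folate and glycine genes measured, 0 were above the other arrays by the same rule on 69CHAT replicate 1 and 1 was below them, the glycine decarboxylase gene GLDC, which read 185 there and 324 to 646 elsewhere. ALDH1L1 and AMT, also of folate and glycine use, were 1.70-fold and 1.61-fold above the median of the other 8. Both were high on replicate 1 of every group. In the order 82CHAT, 69CHAT and WT, replicate 1 read 318, 321 and 242 for ALDH1L1, against 158 to 207 on the other arrays. For AMT it read 183, 191 and 160, against 93.4 to 132. The median of the list was -0.10. On 69CHAT replicate 1, 0.428% of all probe sets were above the other arrays in that way and 0.824% below. Against WT, 1 was higher and 4 lower in 82CHAT, and 1 was higher and 3 lower in 69CHAT. Of all probe sets 26.8% were called in 82CHAT and 26.2% in 69CHAT, in either direction. MTR, methionine synthase, fell by 0.73 in 82CHAT (adjusted p = 0.0083) and by 0.52 in 69CHAT (0.042; 0.090 without 69CHAT replicate 1), and SRR, serine racemase, fell by 0.58 in 82CHAT (0.010) and by 0.54 in 69CHAT (0.014). GCSH, of the glycine cleavage system, fell by 1.22 in 82CHAT (adjusted p = 0.028; -0.89 in 69CHAT, 0.094). FTCD was 0.30 higher in 69CHAT (adjusted p = 0.022; 0.055 without replicate 1) and differed by 0.22 in 82CHAT (0.070). With the replicate number as a block the list's calls were 7 higher and 7 lower in 82CHAT and 6 and 6 in 69CHAT. That fit called 38.2% of all probe sets in 82CHAT and 36.5% in 69CHAT.

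Of 15 genes listed under glutathione and cysteine use, which include other redox enzymes, 4 were above the other arrays by that rule on 69CHAT replicate 1. By this rule 0.428% of all probe sets were above on that array. HMOX1, haem oxygenase, was 4.01-fold and NQO1, a quinone reductase, 3.93-fold above the median of the other 8, both well-known targets of NFE2L2. HMOX1 read 511 there, against 104 to 391 on the other arrays, the highest being WT replicate 2. CHAC1, which degrades glutathione, was 2.31-fold above the median of the other 8. TXNRD1, a thioredoxin reductase, was the other of the 4. NFE2L2 itself was 1.17-fold above that median and within the range of the other arrays (1112, against 737 to 1294). Against WT, 0 of the 15 were higher and 5 lower in 82CHAT, and 1 was higher and 4 lower in 69CHAT. Of all probe sets 26.8% were called in 82CHAT and 26.2% in 69CHAT, in either direction. The higher call in 69CHAT was lost with the replicate block (0 higher and 4 lower), where 36.5% of all probe sets were called. TST, a sulphur transferase, fell by 1.34 in 82CHAT (adjusted p = 1.3e-05) and by 1.14 in 69CHAT (3.2e-05). CDO1, which degrades cysteine, fell by 0.96 in 82CHAT (0.0057) and by 0.85 in 69CHAT (0.010), and SQOR, which oxidises sulphide, by 0.43 in 82CHAT (0.036) and by 0.45 in 69CHAT (0.030). GSS, glutathione synthetase, fell by 0.37 in 82CHAT (0.012) and differed by -0.25 in 69CHAT (0.065).

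Of the regulators against WT, 1 was higher and 3 lower in 82CHAT, and 3 were higher and 1 lower in 69CHAT. Of all probe sets 26.8% were called in 82CHAT and 26.2% in 69CHAT, in either direction. With the replicate block the regulators called were 2 higher and 4 lower in 82CHAT and 4 higher and 2 lower in 69CHAT. That fit called 38.2% of all probe sets in 82CHAT and 36.5% in 69CHAT. EIF4EBP1 was 1.76-fold higher in 82CHAT (adjusted p = 0.040) and 2.12-fold higher in 69CHAT (0.011). EIF2AK3, the kinase PERK, was 1.56-fold higher in 69CHAT (0.011; 1.22-fold in 82CHAT, 0.20), NFE2L2 was 1.57-fold higher in 69CHAT (0.018; 1.42-fold in 82CHAT, 0.051), and EIF2AK1 fell by 0.28 in 82CHAT (0.036) and by 0.32 in 69CHAT (0.020; 0.051 without 69CHAT replicate 1). Without 69CHAT replicate 1 the lower calls among the regulators were 7 in 82CHAT and 5 in 69CHAT, TRIB3 among them (adjusted p = 0.00022 in 82CHAT and 0.0018 in 69CHAT). That fit called 29.7% of all probe sets in 82CHAT and 26.5% in 69CHAT, in either direction. Of 16 cytosolic aminoacyl-tRNA synthetases, 3 were above the other arrays by that rule on 69CHAT replicate 1: GARS1 (2.22-fold above the median of the other 8), SARS1 (2.19-fold) and AARS1 (2.04-fold). The share of all probe sets above by that rule there was 0.428%. Against WT, 1 synthetase was higher and 3 lower in 82CHAT, and 1 was higher and 2 lower in 69CHAT. With the replicate block the lower calls were 6 in 82CHAT and 4 in 69CHAT. The shares of all probe sets called in these fits are those given above for the regulators. SARS1, which charges serine, was also higher than WT in 82CHAT (1.87-fold, adjusted p = 0.042) and in 69CHAT (2.13-fold, 0.019). KARS1 fell by 0.79 in 82CHAT (0.0044) and by 0.67 in 69CHAT (0.010), YARS1 by 0.82 in 82CHAT (0.0075) and by 0.72 in 69CHAT (0.014), and HARS1 by 0.30 in 82CHAT (0.049; -0.29 in 69CHAT, 0.054).

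**Figure D4:**
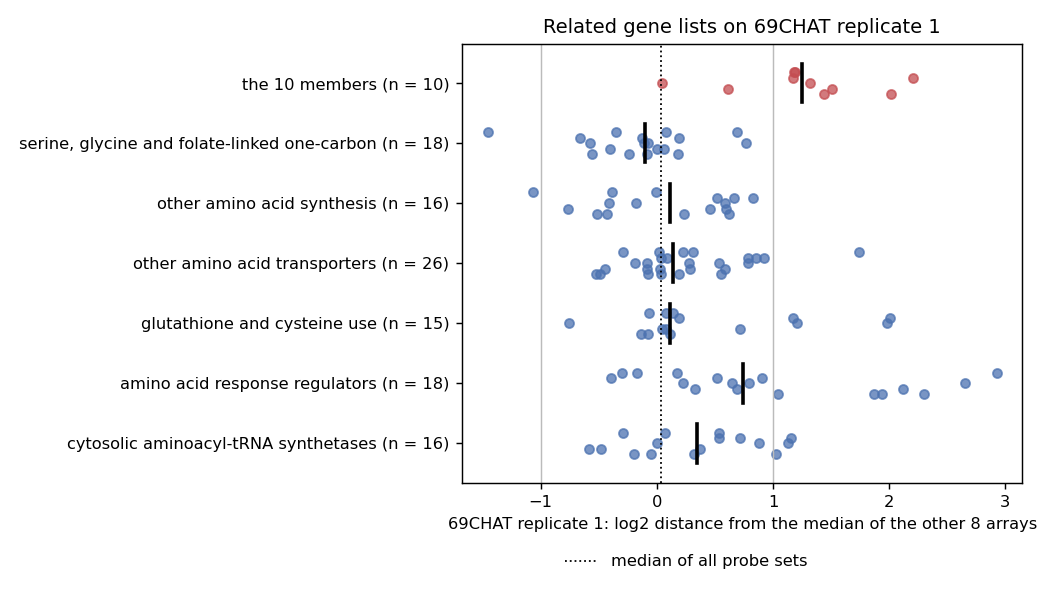
Log2 distance of 69CHAT replicate 1 from the median of the other 8 arrays, 1 point per gene (brightest probe set), for the 10 members and the 6 related lists, with a black bar at each list's median, a dotted line at the median of all probe sets and grey lines at a 2-fold distance. The members have a median of 1.25 and the regulators 0.74, while the folate and glycine list lies at -0.10.

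Among the other 9 members, SLC3A2 followed ASNS most closely over the 9 arrays (Pearson r = 0.96), then SHMT2 (0.94), PHGDH (0.90), PSAT1 (0.89), SLC7A11 (0.88) and PSPH (0.83). CTH (0.44), MTHFD2 (0.33) and CBS (0.13) followed it less. These arrays share groups, processing and the 1 extreme array, and without 69CHAT replicate 1 the values were 0.77 for SLC3A2, 0.76 for PSPH, 0.72 for PSAT1, 0.65 for PHGDH, 0.63 for SHMT2, 0.49 for SLC7A11, 0.01 for CTH, -0.02 for CBS and -0.19 for MTHFD2.

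Among 9886 other named probe sets above the median level, those most like ASNS over the 9 arrays were of ZNF282 (Pearson r = 0.98, Spearman rho = 0.98), LONP1 (0.97 and 0.97), ABCF2 (0.96 and 0.90), GCC1 (0.96 and 0.81) and TMED1 (0.95 and 0.87). Without 69CHAT replicate 1 their Pearson values were 0.92, 0.89, 0.80, 0.89 and 0.94. ZNF282, ABCF2 and GCC1 lie on chromosome 7, as ASNS and PSPH do, and LONP1 and TMED1 on chromosome 19. On chromosome 7, 410 named probe sets above the median level had a median distance of 0.16 on 69CHAT replicate 1 and -0.18 on 82CHAT replicate 1, against -0.08 and -0.10 for the 9486 on other chromosomes. The part of this shift in the values of ASNS and PSPH was not tested.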

How the data were processed

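Total RNA of 9 samples was measured on single-colour arrays, in groups taken from the sample titles. The authors deposited 1 table of probe set intensities, made with RMA per the submitters' processing notes, whose range of 14.9 to 21486 shows a linear scale. The RMA version is not given in the sources used here. Depth does not apply to arrays, and their number limits the precision. The table held 22283 probe sets, of which 68 controls were left out. Probe sets with a single symbol in the platform annotation numbered 19065 (19053 found in RefSeq, GRCh38.p14), those with several symbols 1043 and those without one 2107. No arrays held identical values.

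The log2 intensities of all 9 arrays went into 1 model with 3 group means (limma 3.58.1 under R 4.3.3, eBayes, two-sided), and p-values were adjusted by Benjamini-Hochberg over all 22215 probe sets, with a threshold of 0.05. In 1 simulation each of 69CHAT against WT with 200 changed probe sets, the fit recovered 73% at a log2 change of 1 and 95% at 2. The simulated noise was independent between arrays and held no extreme array, so these shares need not hold for the members. The members, the lists and the naming rule were chosen with earlier results of these data known. The rule names all members by their brightest probe set (highest mean log2 value), from each list up to 4 genes called against WT and the 3 farthest on 69CHAT replicate 1, the 5 probe sets most like ASNS, 6 stress genes and markers of the label. CEBPB and TXNRD1 were named after their values were seen, to complete a count. Same-numbered arrays of different groups deviated together from their group means (correlations of 0.28 to 0.57 in all 9 pairs over probe sets). Replicates 2 and 3 of different groups also did (0.21 to 0.48 in 6 pairs), while replicate 1 ran against both (-0.59 to -0.28 in 12 pairs). Deviations within a group cancel out, so these negative values follow once replicate 1 arrays deviate together and are not separate evidence. Replicate 1 arrays of different groups correlated at 0.47 to 0.57, while 2 and 3 were paired less clearly. As every same-numbered pair exceeded 0.1, the replicate numbers, which come from the titles, were fitted as a block in an alternative. The main fit and its p-values do not use them. The limit of 0.1 cannot show pairing, as replicate 2 with replicate 3 of different groups passed it too. Alternatives covered scaling, pseudocount, filters, weights, the replicate block, replicates 2 and 3 alone and each array left out.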

Additional observations from a re-analysis of the deposited data

How the results depend on the processing

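The count of member probe sets called against WT was 4 in 82CHAT and 4 in 69CHAT with the replicate block, as with median centring and renewed quantile normalization, and 4 in 82CHAT and 6 in 69CHAT with array weights. It was 2 in each line without probe sets of suffix _x_at or _s_at, where only 7 of the 16 were left, and 7 in each line in replicates 2 and 3. Leaving out each array gave 3 to 5 in 82CHAT and 4 to 7 in 69CHAT, the 7 without 69CHAT replicate 1. Between 82CHAT and 69CHAT the count was 0 in every fit, the replicate block included, except 2 in replicates 2 and 3. The number of genes at least 2-fold above the median of the other 8 arrays and above all 8 on 69CHAT replicate 1 was 7 or 8 of 10 under 6 alternatives chosen after seeing the data, 7 against the 5 other arrays of the lines. The replicate block changed no call of a member, while it moved counts of the related lists, given beside them where by over 1.5 times. For single genes, 490 of the 552 values under alternatives kept their direction and their side of the threshold, 7 became calls in the same direction and 55 changed sign, 1 of which was also a call (ASNS in 82CHAT against WT in replicates 2 and 3).

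Sign changes were of values not called over all 9 arrays. In replicates 2 and 3 the log2 differences of 82CHAT from WT became 0.30 for ASNS and 0.15 for PSPH, and those of 69CHAT from WT became -0.059 for ASNS, -0.39 for PSPH, -0.00068 for SHMT2 and -0.21 for SLC3A2. There, 82CHAT minus 69CHAT became 0.36 for ASNS, 0.53 for PSAT1, 0.37 for PHGDH, 0.54 for PSPH, 0.23 for SHMT2, 0.22 for MTHFD2, 0.13 for CBS, 0.41 for SLC7A11 and 0.039 for SLC3A2. With array weights the differences of 82CHAT from WT became 0.17 for ASNS and 0.11 for PSPH, and those of 69CHAT from WT became -0.12 for ASNS, -0.44 for PSPH, -0.010 for SHMT2 and -0.20 for SLC3A2. There, 82CHAT minus 69CHAT became 0.30 for ASNS, 0.50 for PSAT1, 0.31 for PHGDH, 0.55 for PSPH, 0.17 for SHMT2, 0.29 for MTHFD2, 0.091 for CBS and 0.48 for SLC7A11. Replicate 1 is left out in the one setting and has the lowest weight of its group in the other (0.16 in 82CHAT, 0.19 in 69CHAT and 0.40 in WT). SLC7A11 in 69CHAT against WT became 0.026 with a pseudocount of 16 and 0.0042 after quantile normalization. Leaving out each array in turn, 82CHAT minus WT ranged from -0.35 to 0.089 for ASNS and from -0.77 to 0.20 for PSPH. In 69CHAT minus WT the ranges were -0.27 to 0.82 for ASNS, -0.91 to 0.083 for PSAT1, -0.066 to 0.58 for PHGDH, -0.34 to 0.58 for PSPH, -0.043 to 0.60 for SHMT2, -0.95 to 0.46 for SLC7A11 and -0.24 to 0.59 for SLC3A2. In 82CHAT minus 69CHAT they were -1.02 to 0.074 for ASNS, -0.66 to 0.33 for PSAT1, -0.33 to 0.29 for PHGDH, -1.02 to 0.0016 for PSPH, -0.48 to 0.16 for SHMT2, -0.21 to 0.068 for MTHFD2, -0.15 to 0.22 for CBS and -0.97 to 0.43 for SLC7A11. Beyond these constructions the cause was not tested.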
